A study of Mus musculus with 8 samples.

Results

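The phagocyte NADPH oxidase and the antioxidant enzymes were examined in microglia of mice with a conditional deletion of *Smad2* and *Smad3*, the transcription factors that carry the canonical TGFβ signal. The 9 genes, chosen by symbol, were *Cybb*, *Cyba*, *Ncf1*, *Ncf4* and *Rac2* of the oxidase (5 genes) and *Sod2*, *Gpx1*, *Nqo1* and *Gclm* of the antioxidant defence (4 genes), out of 55573 genes in the count table. RNA was sequenced from brain microglia sorted at postnatal day 60 (P60) from 4 mutant mice, *Smad2/3* fl/fl;*Cx3cr1* Cre, and from 4 control littermates, with 1 library per mouse. The labels call the controls wild type, whereas the study's Methods state that its breeding gave no mice free of transgenes and floxed alleles and that fl/+;Cre mice generally served as controls. The mice were backcrossed to C57BL6/J, and the Cre was driven from the *Cx3cr1* locus, which is active in microglia and in related macrophages. Sex is not among the labels.

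The phagocyte oxidase, known as NOX2, passes electrons from NADPH across a membrane to oxygen and so makes superoxide. Its membrane core is a pair of subunits, gp91phox from *Cybb* and p22phox from *Cyba*, and it is switched on when cytosolic subunits, among them p47phox from *Ncf1* and p40phox from *Ncf4*, and the small GTPase *Rac2* join that core. Superoxide dismutases turn superoxide into hydrogen peroxide, which glutathione peroxidases and peroxiredoxins remove, and many genes of glutathione supply are targets of the transcription factor NRF2. In the brain, microglia and other macrophages are the main cells that carry this oxidase.

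Of the 9 genes, *Cybb* and *Gpx1* were higher in the mutants and *Ncf1* was lower, with an adjusted p under 0.05. *Cybb*, the catalytic core, rose 7.50-fold, and *Ncf1*, the organiser of the cytosolic complex, fell 5.33-fold, so that members of 1 enzyme complex changed in opposite directions. *Gpx1* rose 2.08-fold. Background rates were 12.3% of the 20153 genes tested for a call in either direction, 4.36% for a call higher in mutants and 7.97% for a call lower in mutants, and all 9 genes passed the filter on low counts. The groups did not overlap for 6 of the 9, with mutants above controls for 5 (*Cybb*, *Sod2*, *Gpx1*, *Nqo1* and *Gclm*) and below for 1 (*Ncf1*). Groups that did not overlap made up 22.1% of all tested genes, with every mutant above every control for 1822 genes and below for 2627.

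The upstream DNA of the 3 genes that changed, and of *Gclm*, whose upstream stretch held a match to the NRF2 motif, is given here to show what lies before each start site. Each run is the 250 bases before the RefSeq start (GRCm38.p6), 5′ to 3′ on the gene's strand, and capitals mark a motif match. The *Cybb* run is chrX:9469325-9469574 (minus strand), the *Ncf1* run is chr5:134229626-134229875 (minus strand), the *Gpx1* run is chr9:108338830-108339079 (plus strand) and the *Gclm* run is chr3:122245307-122245556 (plus strand).
Cybb: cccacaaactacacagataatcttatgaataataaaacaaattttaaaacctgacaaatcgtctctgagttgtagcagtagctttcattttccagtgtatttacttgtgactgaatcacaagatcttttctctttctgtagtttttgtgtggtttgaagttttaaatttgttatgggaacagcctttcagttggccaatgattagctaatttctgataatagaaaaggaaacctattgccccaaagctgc
Ncf1: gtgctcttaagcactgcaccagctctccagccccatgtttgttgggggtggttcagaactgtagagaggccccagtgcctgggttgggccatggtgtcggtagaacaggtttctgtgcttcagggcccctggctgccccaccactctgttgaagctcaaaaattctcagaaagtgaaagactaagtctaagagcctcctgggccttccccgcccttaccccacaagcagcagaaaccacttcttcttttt
Gpx1: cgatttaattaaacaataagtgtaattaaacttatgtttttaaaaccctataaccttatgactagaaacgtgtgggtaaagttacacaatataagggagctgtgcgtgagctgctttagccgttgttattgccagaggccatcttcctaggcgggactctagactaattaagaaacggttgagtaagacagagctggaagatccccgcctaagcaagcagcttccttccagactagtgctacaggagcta
Gclm: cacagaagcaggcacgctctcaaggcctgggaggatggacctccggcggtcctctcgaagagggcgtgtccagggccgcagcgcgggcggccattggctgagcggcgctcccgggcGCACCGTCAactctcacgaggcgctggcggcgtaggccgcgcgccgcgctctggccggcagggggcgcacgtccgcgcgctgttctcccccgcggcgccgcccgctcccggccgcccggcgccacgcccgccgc
The *Cybb* run was 34.0% G and C with 1 CpG, the *Ncf1* run 54.4% with 2, the *Gpx1* run 42.0% with 7 and the *Gclm* run 78.4% with 41, so that *Cybb* and *Gclm* lay at the ends of the range among these 4.

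A RefSeq promoter window was found for 7 of the 9 genes. The window ran from 250 bases before to 50 bases after the start, and 3 motifs were searched on both strands over 300 bases. GAGGAA, a form of the ETS family site that PU.1 binds, occurred in 28.28% of all 32851 windows. Other forms of that site were not searched, so lower case letters do not show that it is absent. Among the 7 genes GAGGAA was found in *Cybb*, at base 10 after the start on the opposite strand, and in *Sod2*, at base -203. The *Cybb* match is shown within the first 24 bases of the transcript, with its letters in capitals.
Cybb start: tgttttcatTTCCTCatcagaaga
The antioxidant response element core, TGACNNNGC, occurred in 12.39% of all windows and among these genes only in *Gclm*, at base -134 on the opposite strand. Only this form and these 300 bases were searched. The other genes, *Nqo1* among them, may thus carry the element elsewhere or in another form. The palindromic SMAD box, GTCTAGAC, occurred in 0.2131% of all windows and in none of the 7. At so low a share, 7 windows would rarely hold a match. Other forms of SMAD site were not searched, so these runs do not show that such sites are absent. A match is a description of these letters, and no binding was measured.

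Total counts ran from 35639502 to 41946479 per library. *Smad3* was lower in the mutants (39.5 to 56.9 CPM in controls, 9.61 to 35.1 in mutants, log2 fold change -1.33, adjusted p = 0.0429), a call that was lost in 7 of 8 fits that each left out 1 library, and *Smad2* was not called (log2 fold change -0.34, adjusted p = 0.340). Counts summed over a whole gene do not show whether its floxed exons were lost, so the genotypes are given as labelled. CPM here denotes the read count of a gene scaled to a fixed library size, with TMM scaling between libraries. Every control library expressed *Xist* (99.5 to 183 CPM) and every mutant library expressed the Y-linked gene *Ddx3y* (9.74 to 59.8 CPM), with the converse genes at 0.562 CPM or less, so sex and genotype cannot be told apart in any result below. All 10 microglial markers fell, from a summed 35005 to 53524 CPM in controls to 5559 to 8116 in mutants, and 5 of 7 markers of border-associated macrophages rose, from 52.8 to 99.1 CPM to 1632 to 2537 CPM. *Cx3cr1*, the locus of the Cre, is among these 10 microglial markers (mean 6629 CPM in controls, 1321 CPM in mutants). Whether the controls carried the Cre is not settled. If they did not, the Cre and the floxed genotype cannot be told apart. In RNA from sorted cell populations, fewer cells of a type and less RNA per cell cannot be told apart. Of 5 lymphocyte markers 1 rose (*Cd3e*), of 6 astrocyte markers 1 fell (*Slc1a3*), and no marker of any of these lists was without counts in a whole group. *Slc1a3* measured 1084 to 1758 CPM in controls and 25.8 to 170 CPM in mutants, and was left out of the neural sum. Neural marker RNA, summed over the other astrocyte, neuron and oligodendrocyte markers, stood apart in control 1 and mutant 1. These 2 libraries had 6133 and 5162 CPM, against 934 to 2829 CPM in the other 6 libraries. Without those 2 libraries, where 9.51% of the tested genes were called, *Cybb*, *Ncf1* and *Gpx1* kept their calls.

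*Cybb* (ENSMUSG00000015340, mm10 chromosome X, 9435252 to 9487771, minus strand) encodes gp91phox, the subunit that carries the electrons. It measured 92.4, 89.7, 36.5 and 37.8 CPM in controls 1 to 4 and 498, 404, 582 and 438 CPM in mutants 1 to 4. The lowest mutant stood more than 4 times above the highest control, and the controls fell into a higher and a lower pair. The group means were 64.1 ± 31.2 CPM (SD, n = 4) and 481 ± 78.0 CPM (SD, n = 4), a log2 fold change of 2.91 (SE 0.36, 95% interval 2.10 to 3.71, adjusted p = 0.00107). Markers of border-associated macrophages moved with it between the groups, as given above. Within the controls, the higher pair of libraries had a summed 1488 and 2728 CPM of neutrophil markers and 297 and 453 CPM of monocyte markers, against 983 and 572 CPM and 195 and 213 CPM in the lower pair. Border-associated macrophage markers (75.6 and 99.1 against 55.8 and 52.8 CPM) and neural markers (6133 and 2273 against 1346 and 934 CPM) divided the controls into the same pairs. In the mutants the neutrophil sums ran from 316 to 907 CPM and the monocyte sums from 132 to 286 CPM. The Methods describe TdTomato+ cells gated for CD45 and CD11b, and both proteins are also carried by neutrophils and monocytes. The part of any of these cells in the *Cybb* level was not tested, and as an X-linked gene it shares the limit of sex given above.

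**Figure D1:**
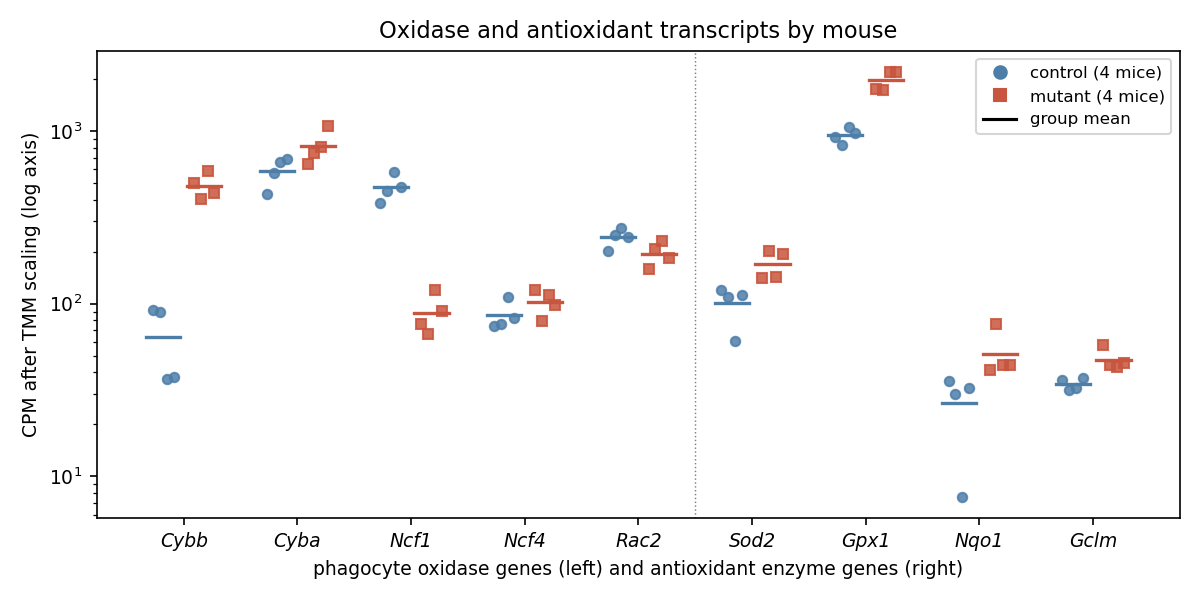
CPM of the 9 genes on a log axis for each control mouse (blue circles) and each mutant mouse (red squares), with a line at each group mean. Mutants lie above all controls for *Cybb*, *Sod2*, *Gpx1*, *Nqo1* and *Gclm* and below all controls for *Ncf1*, and the groups overlap for the other 3.

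*Cyba* (ENSMUSG00000006519, chromosome 8, 122424776 to 122432930, minus strand), whose product p22phox stabilises gp91phox in the membrane, was not called. It measured 434, 568, 662 and 689.6 CPM in controls and 643, 741, 811 and 1064 CPM in mutants. The lowest mutant lay within the range of the controls. Its log2 fold change was 0.47 (SE 0.21, 95% interval -0.0059 to 0.95, adjusted p = 0.179), so the interval allowed anything from no change to a rise nearly 2-fold in size.

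*Ncf1* (ENSMUSG00000015950, chromosome 5, 134220053 to 134229625, minus strand) encodes p47phox, which is phosphorylated on activation and brings the cytosolic subunits to the membrane. It measured 381, 449.5, 581 and 476 CPM in controls and 76.3, 66.8, 119.9 and 91.2 CPM in mutants. The lowest control stood more than 3 times above the highest mutant. The log2 fold change was -2.41 (SE 0.23, 95% interval -2.92 to -1.91, adjusted p = 0.000249), from 472 ± 82.8 to 88.6 ± 23.2 CPM (SD, n = 4 in each group). Its exons share 408 bases with *Gtf2ird2* on the other strand, which unstranded counting cannot assign by strand, and 7.45% of the 50-base words of its transcripts also occur in other genes. *Gtf2ird2* itself stood at 5.12 to 18.1 CPM in controls and 2.73 to 10.1 CPM in mutants, far below *Ncf1*. The *Ncf1* fall went with the fall of the microglial markers and with lower levels of *Camp* and *Ltf*, the 2 of 11 neutrophil markers that passed the test. Summed neutrophil markers stood at 1488, 2728, 983 and 572 CPM in controls 1 to 4. In mutants 1 to 4 they stood at 316, 790, 907 and 839 CPM. The part of these marker shifts in the *Ncf1* level was not tested.

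*Ncf4* (ENSMUSG00000071715, chromosome 15, 78244801 to 78262580, plus strand), whose product p40phox binds a lipid of phagosome membranes, measured 74.3, 75.9, 109 and 82.6 CPM in controls and 119.9, 79.0, 112 and 98.6 CPM in mutants. The groups overlapped, and its log2 fold change of 0.26 (SE 0.19, 95% interval -0.16 to 0.68) did not pass the test (adjusted p = 0.406). *Rac2* (ENSMUSG00000033220, chromosome 15, 78559167 to 78572783, minus strand), the GTPase that activates the oxidase in blood cells, measured 201, 251, 275 and 242 CPM in controls and 159, 209, 229 and 183 CPM in mutants. Its groups overlapped as well, with a log2 fold change of -0.31 (SE 0.17, 95% interval -0.69 to 0.06, adjusted p = 0.250). For both genes a change of 2-fold lay outside the interval.

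*Gpx1* (ENSMUSG00000063856, chromosome 9, 108338903 to 108340343, plus strand), the cytosolic and mitochondrial glutathione peroxidase that removes hydrogen peroxide, was the antioxidant gene that changed. It measured 928, 825, 1055 and 972 CPM in controls and 1743, 1736, 2194 and 2180.0 CPM in mutants. The groups were far apart relative to their spread, with coefficients of variation of 10.1% and 13.2%. The mean went from 945 ± 95.8 to 1963 ± 258 CPM (SD, n = 4 in each group), and the log2 fold change was 1.05 (SE 0.16, 95% interval 0.70 to 1.41, adjusted p = 0.00293). No 50-base word of its transcripts occurred in another annotated gene. The same marker shifts as for *Cybb* moved with it, and their part was not tested.

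*Sod2* (ENSMUSG00000006818, chromosome 17, 13006846 to 13040063, plus strand), the mitochondrial superoxide dismutase, measured 119.5, 109.9, 61.2 and 112 CPM in controls and 141, 201, 142 and 193 CPM in mutants. All mutants lay above all controls, but the log2 fold change of 0.75 (SE 0.24, 95% interval 0.22 to 1.284) missed the threshold with an adjusted p of 0.0715 by edgeR. With DESeq2, which called 20.4% of the genes it tested, the same counts gave an adjusted p of 0.0191. Over its exons, 21.04% of 50-base words also occur in other genes, which makes its level less certain than those of the other members. Control 3 stood well below the other 3 controls, and without it the log2 fold change of *Sod2* was 0.57. Among the antioxidant members, control 3 was also the lowest control for *Nqo1*. It was the highest control for *Gpx1* and not the lowest for *Gclm*. The same library had the highest microglial marker sum of the controls (53524 CPM). The cause of its low values was not tested.

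*Nqo1* (ENSMUSG00000003849, chromosome 8, 107388225 to 107403206, minus strand), a quinone reductase and a classical NRF2 target, measured 35.8, 30.2, 7.64 and 32.6 CPM in controls and 41.1, 75.8, 44.3 and 43.9 CPM in mutants. The groups did not overlap, but control 3 and mutant 2 stood apart from their groups. Without control 3 the log2 fold change was 0.64 (adjusted p = 0.175 by edgeR). The coefficients of variation of 48.3% in controls and 32.1% in mutants left a log2 fold change of 0.95 with an SE of 0.43 (95% interval -0.03 to 1.93, adjusted p = 0.185). *Gclm* (ENSMUSG00000028124, chromosome 3, 122245557 to 122270732, plus strand), the modifier subunit of the enzyme that makes the first step of glutathione synthesis, measured 36.1, 31.4, 32.3 and 37.4 CPM in controls and 57.3, 43.9, 43.1 and 45.5 CPM in mutants. Its controls were the least variable of the 9 genes, with a coefficient of variation of 8.39%. The log2 fold change was 0.47 (SE 0.15, 95% interval 0.12 to 0.81), with an adjusted p of 0.0804 by edgeR and of 0.0121 by DESeq2. *Gclm* overlaps *Gm17494* on the other strand, which measured 1.65 to 2.60 CPM in controls and 2.17 to 19.9 CPM in mutants (adjusted p = 0.0801), and 4.58% of its 50-base words occur in other genes.

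**Figure D2:**
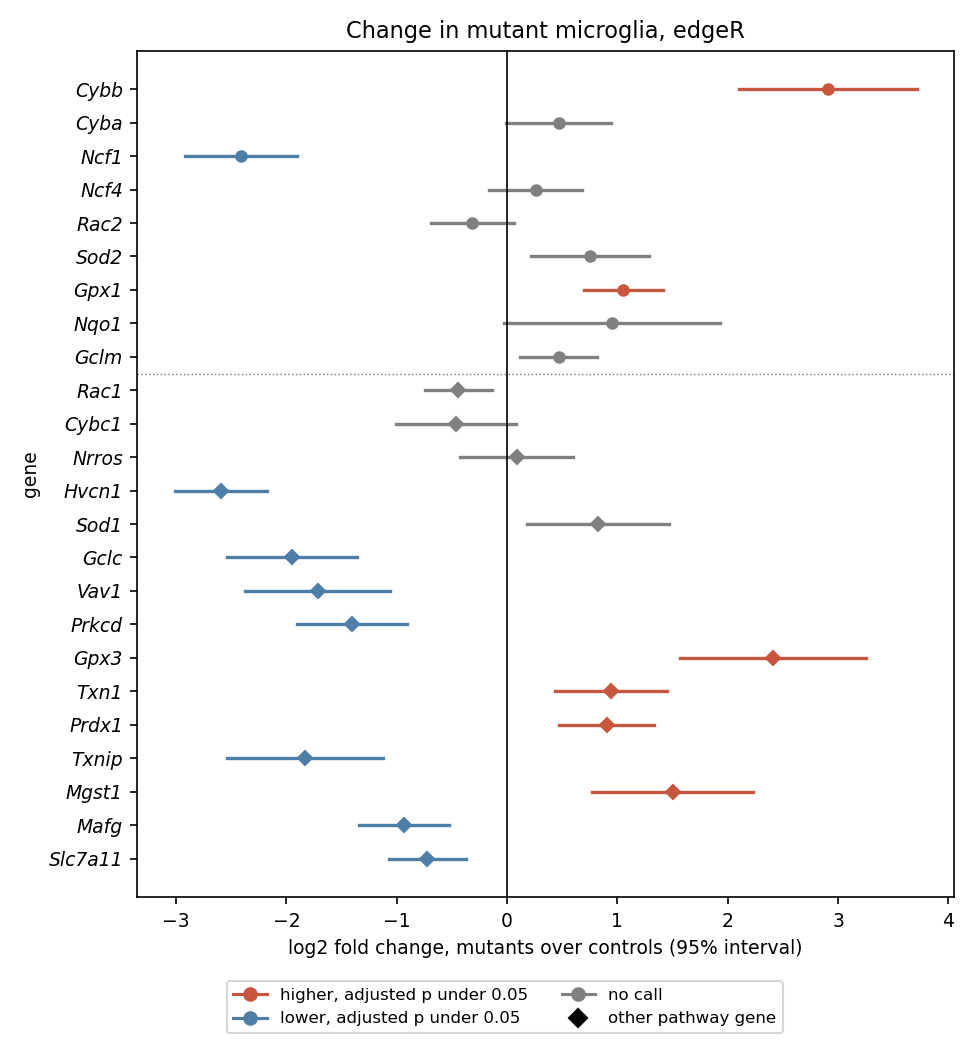
Log2 fold change of mutants over controls with its 95% interval for the 9 genes (circles) and for 15 other named genes of the oxidase and antioxidant pathways (diamonds), coloured by the edgeR call. *Cybb* (2.91) and *Ncf1* (-2.41) lie at opposite ends among the 9, and all 4 antioxidant members lie above 0 while only *Gpx1* passed the test. Of all 20153 tested genes, 10204 had point estimates above 0.

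The other genes of the pathway were read from 5 lists of 59 genes in all, of which 49 could be tested. By edgeR 4 were higher and 9 were lower, against 4.36% and 7.97% of all tested genes. Among 10 other oxidase parts and regulators, 0 were higher and 4 were lower by edgeR, and the median log2 fold change was -0.48 against 0.01 over all tested genes. DESeq2 called 0 higher and 5 lower, where it called 8.97% of all genes higher and 11.5% lower. At an unadjusted p under 0.05, edgeR gave 0 higher and 5 lower, against 13.1% and 15.6% of all tested genes. *Hvcn1*, the voltage-gated proton channel that balances the charge moved by the oxidase, went from 71.9 to 88.6 CPM in controls to 10.3 to 16.4 CPM in mutants (log2 fold change -2.59, SE 0.19, adjusted p = 7.8e-05). It shares 39.7% of its 50-base words with the overlapping gene *Tctn1*, which stood at 7.11 to 12.4 CPM in controls and 7.02 to 8.30 CPM in mutants. *Vav1*, an exchange factor that loads Rac with GTP, fell (-1.72, SE 0.29, adjusted p = 0.00532), as did *Prkcd*, a protein kinase C that phosphorylates p47phox (-1.40, SE 0.22, adjusted p = 0.00361). The fourth was *Arhgdib*, a GDP-dissociation inhibitor of small GTPases in blood cells, named after its values were seen (-1.19, SE 0.16, adjusted p = 0.00197).

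The assembly genes and *Rac1* did not pass the edgeR test. *Cybc1*, a chaperone of the membrane core, had -0.46 (adjusted p = 0.242), and *Nrros*, a protein that limits the oxidase and also carries latent TGFβ1 on microglia, had 0.09 (adjusted p = 0.847). *Rac1* had -0.44 (adjusted p = 0.0633 by edgeR, 0.00339 by DESeq2) with no overlap between groups, but 50.3% of its 50-base words lie in the overlapping gene *Daglb*, which itself fell (-2.40, adjusted p = 0.000216), so the *Rac1* level is uncertain. *Rap1a* and *Prkcb* were not called either.

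Of 9 other NADPH oxidase family genes, 7 had too few counts to test. *Duoxa1*, a maturation factor of the dual oxidases, measured 3.98 to 26.4 CPM in controls. It had 0 counts in all 4 mutants (adjusted p = 0.00173 by edgeR). With the mutants set at a floor of 3 counts over the group, the control mean of 13.7 CPM stood 718-fold higher. That value rests on the mean and leaves out the spread of the controls. The exons of *Duoxa1* overlap those of *Duoxa2*, which had no count in any library. *Noxo1*, the other family member tested, was not called (adjusted p = 0.782).

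Among 10 other superoxide dismutases, catalase and glutathione peroxidases, 7 were tested, with a median log2 fold change of 0.82. By edgeR 1 was higher and 0 were lower, against 4.36% and 7.97% of all tested genes. At an unadjusted p under 0.05 edgeR gave 5 higher and 0 lower, and DESeq2 called 5 higher and 0 lower, to be read against the shares of all genes given above for these thresholds. *Gpx3*, the secreted glutathione peroxidase, went from 2.01 to 7.79 CPM in controls to 26.1 to 31.7 CPM in mutants (log2 fold change 2.41, SE 0.37, adjusted p = 0.00347). *Sod1*, the cytosolic superoxide dismutase, had 0.82 (SE 0.28) and missed the threshold (adjusted p = 0.0930 by edgeR, 0.0363 by DESeq2). All 7 tested genes of the list had point estimates above 0, as did 10204 of all 20153 tested genes. Control 3 was the lowest control for most genes of the list, *Sod1* and *Gpx3* among them. Without control 3 the log2 fold change was 0.68 for *Sod1* and 2.13 for *Gpx3*.

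Among 15 peroxiredoxin and thioredoxin genes, 2 were higher and 1 was lower by edgeR, against 4.36% and 7.97% of all tested genes. The median log2 fold change was 0.34. At an unadjusted p under 0.05 edgeR gave 3 higher and 1 lower, against 13.1% and 15.6% of all tested genes. DESeq2 called 3 higher and 1 lower, against 8.97% and 11.5%. *Prdx1*, a cytosolic peroxiredoxin, went from 219.9 to 332 CPM in controls to 424 to 641 CPM in mutants (log2 fold change 0.90, SE 0.19, adjusted p = 0.0161). *Txn1*, cytosolic thioredoxin, had 0.94 (SE 0.23, adjusted p = 0.0268). The *Prdx1* call was lost without control 2 (adjusted p = 0.0576), and the *Txn1* call without any 1 of controls 1, 2 and 3 and mutants 2, 3 and 4 (adjusted p up to 0.0817). *Txnip*, which binds and inhibits thioredoxin, fell from 744 to 1972 CPM in controls to 272 to 436 CPM in mutants (-1.83, SE 0.31, adjusted p = 0.00564). It overlaps the antisense gene *Gm15441*, which reached at most 1.03 CPM in any library.

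Among 15 genes of glutathione supply and the NRF2 pathway, 1 was higher and 3 were lower by edgeR, against 4.36% and 7.97% of all tested genes. The median log2 fold change was -0.25. At an unadjusted p under 0.05 edgeR gave 3 higher and 5 lower, against 13.1% and 15.6% of all tested genes. DESeq2 called 2 higher and 4 lower, against 8.97% and 11.5%. *Gclc*, the catalytic partner of *Gclm*, went from 79.8 to 114 CPM in controls to 18.6 to 38.5 CPM in mutants (log2 fold change -1.95, SE 0.26, adjusted p = 0.00162). *Slc7a11*, the cystine transporter that feeds glutathione synthesis, fell (-0.72, SE 0.16, adjusted p = 0.0169), and *Mafg*, a small MAF partner of NRF2, fell (-0.93, SE 0.18, adjusted p = 0.0101). Both of these calls were lost without the 2 libraries rich in neural RNA (adjusted p = 0.0826 and 0.0516), and *Mafg* overlaps *Sirt7*, which moved alike (-0.89, adjusted p = 0.0135). *Mgst1*, a microsomal glutathione transferase, rose (1.50, SE 0.32, adjusted p = 0.0168). The gene of NRF2 itself, *Nfe2l2*, was not called (0.43, adjusted p = 0.167).

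Levels of different genes were compared per length, as RPKM over the union of each gene's annotated exons. In controls the order was *Gpx1* (656 RPKM), *Cyba* (566), *Ncf1* (129), *Rac2* (78.1), *Ncf4* (42.3), *Nqo1* (17.1), *Cybb* (11.0), *Sod2* (10.1) and *Gclm* (5.45). The libraries overlapped between *Gpx1* and *Cyba*, between *Nqo1* and *Cybb* and between *Cybb* and *Sod2*, so these neighbours are not ordered beyond their spread. In mutants the order was *Gpx1* (1362 RPKM), *Cyba* (784), *Cybb* (82.8), *Rac2* (62.8), *Ncf4* (50.7), *Nqo1* (33.0), *Ncf1* (24.2), *Sod2* (16.9) and *Gclm* (7.54). *Cybb* moved from rank 7 to rank 3 and *Ncf1* from rank 3 to rank 7, while the other 7 genes kept their ranks. In the mutants every pair of neighbours from *Cybb* down to *Sod2* overlapped.

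**Figure D3:**
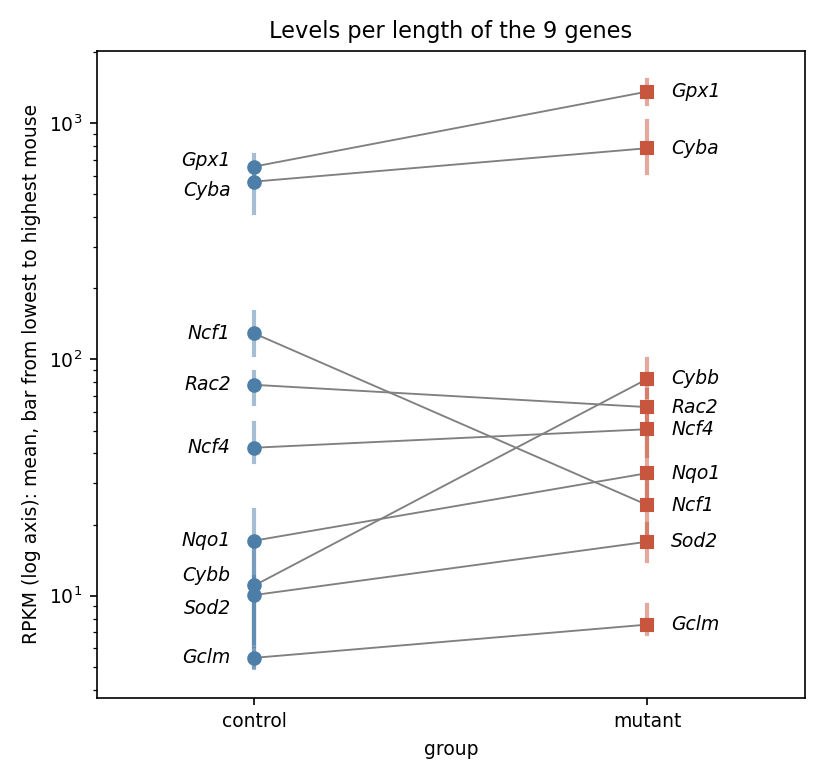
Mean RPKM of the 9 genes in the control and mutant groups on a log axis, with a bar from the lowest to the highest of the 4 mice and a line joining each gene. The lines of *Cybb* (11.0 to 82.8) and *Ncf1* (129 to 24.2) cross, and *Gpx1* and *Cyba* stand above the rest in both groups.

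Ratios of partner genes within each library do not depend on the scaling of libraries. *Cybb* over *Cyba*, the 2 subunits of the membrane core, was 0.0381, 0.0283, 0.00988 and 0.00980 per length in controls and 0.139, 0.0975, 0.128 and 0.0737 in mutants. The transcript of the catalytic subunit thus stayed well below that of its partner in every library, although the ratio went up by 2.57 on the log2 scale. *Ncf1* over *Ncf4* was 2.83, 3.27, 2.94 and 3.18 in controls and 0.351, 0.466, 0.591 and 0.510 in mutants, a difference of -2.69. *Gclm* over *Gclc*, the 2 subunits of glutamate-cysteine ligase, was 0.271, 0.188, 0.170 and 0.241 in controls and 0.892, 1.41, 1.39 and 1.11 in mutants, a difference of 2.47. For these 3 ratios the groups were fully separated, which gives the smallest p that 70 splits of 4 against 4 allow in a two-sided exact permutation test (p = 0.0286, adjusted over the 5 ratios p = 0.0476). When mutant 1 or mutant 3 was left out, all 3 missed the threshold of the same test after adjustment over the 5 ratios. The adjusted p was at most 0.0952 for *Cybb* over *Cyba* and at most 0.0714 for *Ncf1* over *Ncf4* and *Gclm* over *Gclc*. The groups stayed fully separated for all 3, and the adjusted p of each ratio depends on the p of the others. *Rac2* over *Rac1* (difference 0.13, exact permutation p = 0.429, adjusted p = 0.536) and *Sod2* over *Sod1* (difference -0.05, exact permutation p = 0.8286, adjusted p = 0.8286) overlapped between the groups. The *Rac1* level is uncertain for its overlap with *Daglb*, as given above, and so is the *Rac2* over *Rac1* ratio.

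**Figure D4:**
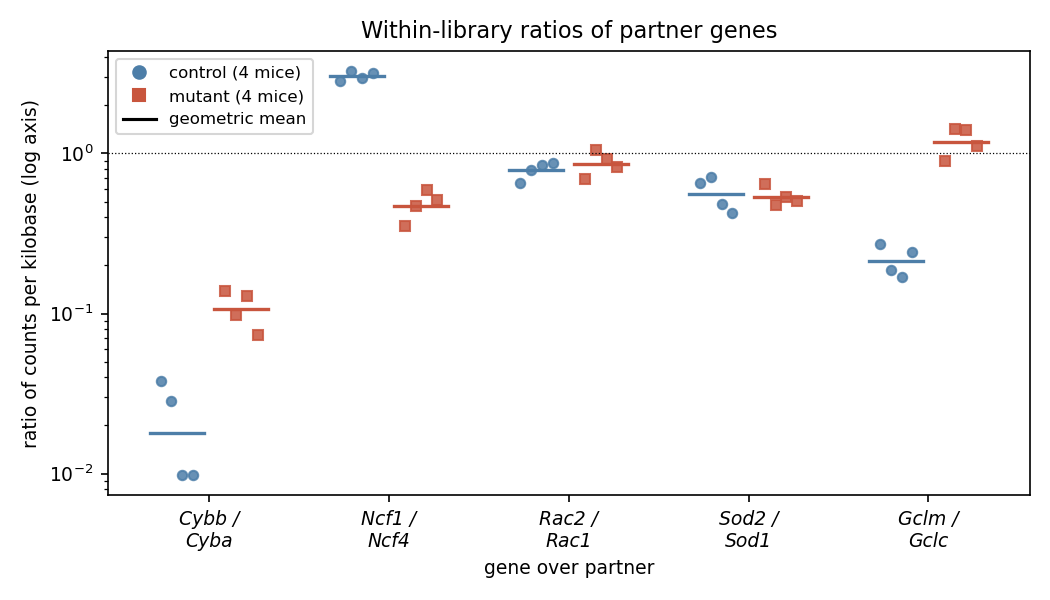
Ratio of counts per kilobase of each gene to its partner within each library on a log axis, for control mice (blue circles) and mutant mice (red squares), with a line at the geometric mean. Controls and mutants are fully apart for *Cybb* over *Cyba*, *Ncf1* over *Ncf4* and *Gclm* over *Gclc*, and overlap for *Rac2* over *Rac1* and *Sod2* over *Sod1*.

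The gene most like each member was taken as the one with the smallest root mean square difference of centred log2 CPM over the 8 libraries among 10345 candidate genes. *Clec12a*, an inhibitory lectin receptor of myeloid cells, was closest to *Cybb* (0.166 log2 units) and went from 16.8 ± 7.16 to 145 ± 12.5 CPM (SD, n = 4 in each group). *Mfng*, a Notch-modifying glycosyltransferase, was closest to *Ncf1* (0.147) and went from 160.1 ± 28.1 to 34.6 ± 7.21 CPM (SD, n = 4 in each group). *Wtip*, a LIM domain protein, was closest to *Gpx1* (0.110), and *Cd302*, a lectin receptor, to *Cyba* (0.102). The nearest genes to the others were *Trmt10c* for *Ncf4*, *Rrp36* for *Rac2*, *Gm10108* for *Sod2*, *Dynlrb2* for *Nqo1* and *Rchy1* for *Gclm*, at 0.0807 to 0.119 log2 units.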

How the data were processed

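RNA from sorted P60 microglia of 4 mutant and 4 control mice was read as deposited raw counts per gene, 1 library per mouse. The authors' Methods name Rsubread for alignment to mm10 and featureCounts for these counts, which carry no normalization. The labels describe Nextera XT single-end unstranded libraries, the Methods another kit and paired ends, and the Methods name another deposit for these mutants, so the experiment was identified by genotype and cell type. Versions and annotation of the counting are not given in the sources used here. The labels also name DESeq2 1.28, for a deposited table of the authors' own comparison (fold changes and p-values), which was not used. Columns of per-sample values left unused numbered 0.

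Genes were matched by identifier to GENCODE M21 (GRCm38, the same assembly as mm10), with 55480 of 55573 rows matched. Testing was limited to genes that reached 10 counts in 4 or more of the 8 libraries, with edgeR 4.0.16 in R 4.3.3 (TMM, quasi-likelihood test, no block), adjusted by Benjamini and Hochberg's method over all 20153, and called at an adjusted p under 0.05. RPKM divided CPM by exon-union length. Ratios used counts plus 0.5 per kilobase and an exact permutation test. Analyses ran in Python 3.11.15 (scipy 1.17.1), and the scripts were tested on simulated data. Members and lists were chosen with earlier results of these data known. From the other lists the text names fixed partner and regulator genes and, per list and direction, the at most 3 called genes with the largest change, while *Arhgdib*, *Rap1a*, *Prkcb*, *Noxo1* and *Nfe2l2* were named after their values were seen. Alternatives were DESeq2 1.42.0, other scalings and filters, a replicate block, leaving out each library, other lengths and other added counts. The floor covers counting error only, as the reads carry no molecular identifiers. Of the other oxidase genes, 1 counts in its totals and is not reported singly here.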

Additional observations from a re-analysis of the deposited data

Results flagged for a closer look

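In 59 groups of 4 libraries, 3 had a lowest or highest library that stood apart by Dixon's test at the 95% level, where chance alone gives about 1 group in 20. *Sod2* stood at 61.2 CPM in control 3, the lowest control, against 109.9 to 119.5 CPM in the other 3. *Nqo1* reached 75.8 CPM in mutant 2, against 41.1 to 44.3 CPM in the other 3 mutants. *Gclm* reached 57.3 CPM in mutant 1, 1 of the 2 libraries rich in neural marker RNA, against 43.1 to 45.5 CPM.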

How the results depend on the processing

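*Cybb*, *Ncf1* and *Gpx1* kept their direction and call under every alternative run. Leaving out each library, their log2 fold changes ran from 2.71 to 3.14, from -2.60 to -2.30 and from 0.995 to 1.12, and 3 members were called in each such fit. DESeq2 called 4738 genes (2483 of them shared with the 2485 of edgeR), 21 pathway genes against 13, and 5 members, adding *Sod2* (0.76, adjusted p = 0.0191) and *Gclm* (0.47, adjusted p = 0.0121). Leave-one-out counts ran from 1567 (7.78%) to 2499 (12.4%) genes, 1572 without control 2 and 1567 without control 3, and from 11 to 15 pathway genes. *Sod2* was also called when 10 counts were required in all 8 libraries (0.76, adjusted p = 0.0470). Scaling by library totals moved the median log2 fold change of all genes from 0.01 to 0.13, and *Ncf1* then stood at -2.43 and *Cybb* at 2.87 relative to it.

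Same-numbered mice had deviations correlated at 0.166, 0.0183, 0.144 and 0.114. Controls 1, 3 and 4 each correlated best with the mutant of the same number, and control 2 with mutant 1 (0.108). Whether the numbers pair the mice is thus not settled, and the main fit took no block. A fit with replicate block called 2383 genes (11.8%) and 4 members, *Sod2* among them (0.78, adjusted p = 0.0488), and *Slc7a11* lost its call (adjusted p = 0.0523). As paired differences, *Cybb* over *Cyba* (2.57), *Ncf1* over *Ncf4* (-2.69) and *Gclm* over *Gclc* (2.47) had an adjusted p of 0.208 in a sign-flip test of 4 pairs, which cannot go below p = 0.125 unadjusted by exact permutation. Without mutant 1 or mutant 3 these 3 ratios lost the threshold in the exact permutation test (adjusted p up to 0.0952), though their groups stayed fully separated. Their leave-one-out ranges were 2.27 to 2.93, -2.80 to -2.55 and 2.36 to 2.60. *Sod2* over *Sod1* ran from -0.18 to 0.071 and turned positive without control 1 (0.028), control 2 (0.071) or mutant 2 (0.0089), and *Nrros* ran from -0.044 (without mutant 3) to 0.28. By longest-transcript length *Cybb* ranked 8 and *Sod2* 6 in controls, and *Ncf4* 4 and *Rac2* 5 in mutants. The cause of these changes was not tested.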
